A study of Mus musculus with 10 samples.

Results

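The 38 genes described here encode the digestive system of the lysosome and the pump that acidifies it. They comprise 8 peptidases, 10 glycosidases, lipid hydrolases and soluble cofactors, 5 proteins of the lysosomal membrane, 14 ubiquitous subunits of the vacuolar H+-ATPase (V-ATPase) with its accessory subunit Atp6ap1, and the transcription factor Tfeb. They were chosen by name and not by their values, although earlier results of these data were known. All 38 were found among the 43629 genes listed in the count table.

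Lysosomes receive material from endocytosis and autophagy and break it down with acid hydrolases. The V-ATPase keeps the lumen acidic, with a cytosolic V1 sector that splits ATP and a membrane V0 sector that moves protons. In the kidney, proximal tubule cells take up filtered protein and degrade it in lysosomes, and intercalated cells carry a V-ATPase with tissue-restricted subunits on their surface to secrete acid. TFEB, a basic helix-loop-helix factor restrained by mTORC1, binds E-box sites in the promoters of many lysosomal genes.

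The kidneys came from male UM-HET3 mice, a genetically heterogeneous stock bred from several inbred strains. Control mice (6 kidneys) ate the Purina 5LG6 diet, and rilmenidine mice (4 kidneys) ate the same diet with 10 ppm of rilmenidine, an antihypertensive agonist of imidazoline receptors, for 1 month from 3 months of age. Both groups were 4 months old at collection, and every library was made from whole kidney tissue. The question put to these samples was how the drug altered the kidney transcriptome of young mice.

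Total counts ranged from 863605 to 2559118 (median 1489031) in control libraries and from 1813465 to 3232063 (median 2483263) in rilmenidine libraries. Mean log2 depth was higher with rilmenidine (two-sided exact permutation test, p = 0.0524). Of 10055 genes tested with edgeR's quasi-likelihood test, 0 passed an adjusted p-value of 0.05, 1061 had an unadjusted p under 0.05, and DESeq2 and the edgeR likelihood ratio test called 60 and 44 genes. The nuclear RNA Malat1 separated the libraries: control replicates 1, 3, 4 and 5 held 1165 to 2074 normalized CPM (the count scaled to the size of its library), while control replicates 2 and 6 held 282 to 391, like the 304 to 391 of the rilmenidine kidneys. Proximal tubule markers summed to 51010 to 63790 normalized CPM in control and 52650 to 78150 in rilmenidine kidneys. Most of this was the marker Kap, with 31100 to 45630 and 35460 to 59180, and 5 of the 10 markers had a log2 fold change above 0. Albumin, the defining liver transcript, had at most 20 counts in any library, and the liver markers Apoa1, Fgb and Serpina3k at most 4, 10 and 4. Cyp2e1, the remaining liver marker listed, went the other way, with 1477 to 8318 counts per library.

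Where TFEB-type sites lie in these genes is shown first, since the members were later split by them. RefSeq promoter windows, which run from 250 bases before to 50 bases after a gene's start, were found for 30 of the 38 genes. The E-box core CACGTG, which reads the same on both strands, was present in 12 of the 30 windows (40.0%), in 15 of 48 windows (31.3%) of the further lysosomal genes considered below and in 8.09% of 27025 mouse gene windows. The longer form TCACGTGA, which contains the core, was present in 7 of the 30 (23.3%) and in 1.12% of all windows. Among the 48 windows of the further lysosomal genes it was present in 9 (18.8%). A 10-base form that contains this longer form was present in 0 of the 30 windows. That 10-base form was present in 2 of the 48 (4.17%) and in 0.37% of all windows. A match describes the letters of the window and is not evidence of binding.

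The 8 stretches below are printed 5′ to 3′ on the strand of the gene with each core in capitals. They are examples from membrane proteins, enzymes and subunits of the pump, and those of Mcoln1 and Ctsd each leave out the other core of the window. Coordinates are those of GRCm38.p6, and all the stretches lie upstream of the RefSeq start. Even so, those of Mcoln1 and Ctsd fall within an exon, and that of Atp6v1a within an intron, of longer GENCODE transcripts. The last 4 bases of the Atp6v0b stretch also lie in a GENCODE exon.
Lamp1, chr8:13159088-13159160, plus strand: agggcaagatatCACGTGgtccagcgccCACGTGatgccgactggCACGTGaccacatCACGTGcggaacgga
Mcoln1, chr8:3500462-3500491, plus strand: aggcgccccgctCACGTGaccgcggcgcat
Gla, chrX:134601182-134601244, minus strand: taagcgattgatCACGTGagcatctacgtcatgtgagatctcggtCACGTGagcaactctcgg
Ctsd, chr7:142387908-142387937, minus strand: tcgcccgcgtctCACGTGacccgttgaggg
Atp6v0b, chr4:117887330-117887377, minus strand: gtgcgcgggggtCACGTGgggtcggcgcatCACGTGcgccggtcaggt
Glb1, chr9:114401018-114401047, plus strand: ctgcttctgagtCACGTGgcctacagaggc
Gaa, chr11:119267811-119267840, plus strand: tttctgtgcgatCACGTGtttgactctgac
Atp6v1a, chr16:44139373-44139402, minus strand: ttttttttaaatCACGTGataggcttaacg

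Lamp1 carried 4 cores in its window, the most of any member. Mcoln1, Gla, Ctsd, Ctsa and Atp6v0b carried 2 each. The windows of Atp6v0d1, Atp6v0e, Atp6v1a, Ctsl, Gaa and Glb1 held a single core.

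Among the 37 genes that passed the filter on low counts, 30 had a log2 fold change above 0 with rilmenidine and 7 had one below, and the median was 0.15. Over all genes tested, 50.3% were above 0 and the median log2 fold change was 0.0021. The differences were small against the spread between kidneys. By edgeR's quasi-likelihood test 0 of the 37 passed an adjusted p-value of 0.05, against 0% of all genes tested, with adjusted p-values from 0.368 to 0.995, and DESeq2 and the likelihood ratio test also gave 0, against 0.597% and 0.438% of all genes. At an unadjusted p under 0.05 there were 3 members, all higher with rilmenidine, namely Npc2, Ctsh and Atp6v0e. That is 8.11% of the members, against 4.43% of all genes called higher, 6.13% called lower and 10.6% in either direction. DESeq2 gave 5 members at that level (9.8% of all genes), adding Atp6v1f and Lamp1. In bulk tissue, a change in the number of cells of a type and a change in RNA per cell cannot be told apart.

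**Figure D1:**
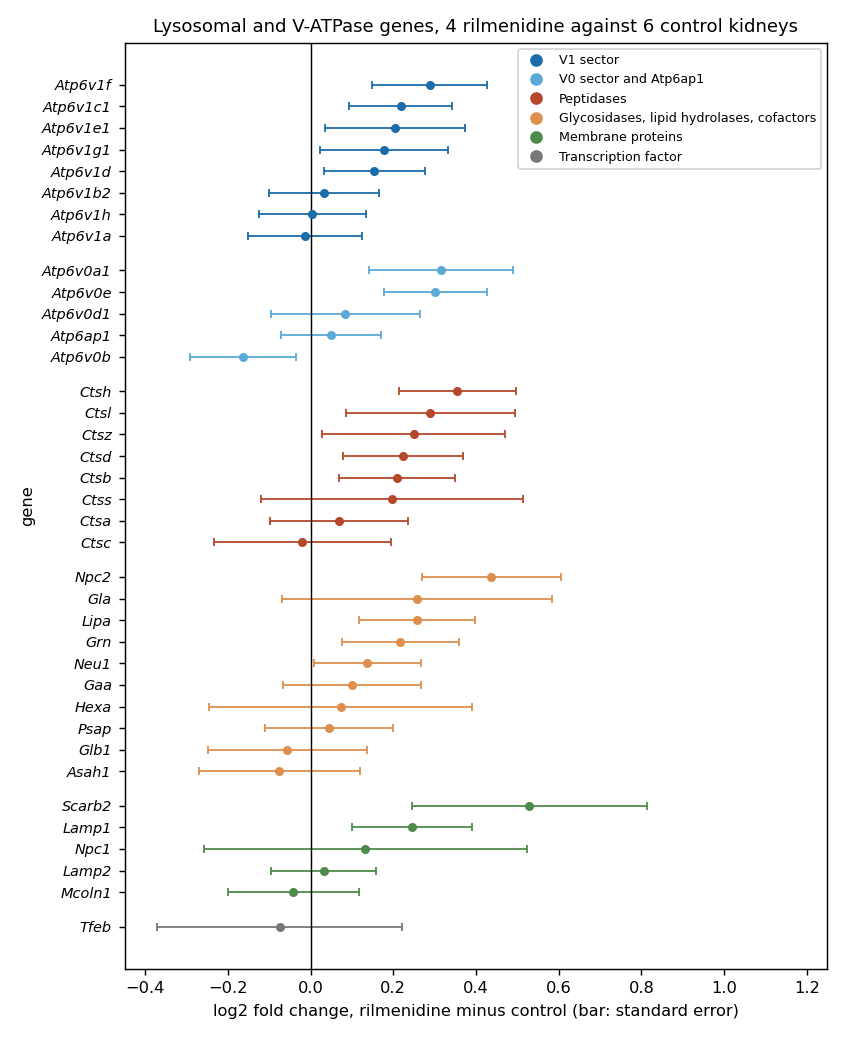
Log2 fold change of each of the 37 tested genes (rilmenidine minus control, horizontal axis), by gene group; points are estimates of the edgeR fit over 10 kidneys and bars are standard errors. Of the 37 points, 30 lie above 0 and 7 below, and 0 pass the adjusted threshold.

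The V1 sector, the ATP-splitting head and stalk of the pump, had 8 members, of which 7 had a log2 fold change above 0 (median 0.17) and 0 reached an unadjusted p under 0.05. Atp6v1f, a small subunit of the rotor stalk, was the highest of them. Its level in control kidneys ran from 590 through a median of 715 to 913 normalized CPM, and in the rilmenidine kidneys it was 961, 908, 838 and 816. All 4 rilmenidine kidneys stood above the control median and 1 above the highest control, so the groups overlapped. Atp6v1f gave a log2 fold change of 0.29 (SE 0.14, 95% confidence interval -0.0049 to 0.58), and the adjusted p in edgeR was 0.479.

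Atp6v1a, the catalytic subunit, was the lowest of the sector. Control kidneys ranged from 1472 to 1982 normalized CPM around a median of 1723, and the rilmenidine kidneys held 1588, 1431, 1926 and 1892. No rilmenidine kidney exceeded the highest control, and 1 lay below the lowest. Its log2 fold change was -0.014 (95% confidence interval -0.30 to 0.28), an interval that holds changes of either sign. The levels of the other 6 subunits overlapped as well. Atp6v1b2, the ubiquitous B subunit, averaged 916 ± 112 in control and 936 ± 109 normalized CPM in rilmenidine kidneys (SD, n = 6 and 4). Atp6v1h, which regulates the coupling of the sectors, averaged 183 ± 25.2 and 183 ± 18.6.

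Among the stalk subunits, Atp6v1c1 spanned 76.9 to 102 normalized CPM in control kidneys and was 109, 92.2, 105 and 108 with rilmenidine. The stator subunit Atp6v1e1 ran from 203 to 375 in controls against 235 to 372, and its partner Atp6v1g1 from 270 to 450 against 348 to 463. Atp6v1d, the central shaft, ran from 246 to 308 in controls against 250 to 344. Only for Atp6v1c1 did as many as 3 of the 4 rilmenidine kidneys exceed every control in this sector.

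The V0 sector and Atp6ap1 gave 4 of 5 tested log2 fold changes above 0 (median 0.08). Atp6v0e (ENSMUSG00000015575, chr17:26663231-26699647, plus strand), a small hydrophobic membrane subunit, was the member of the pump with the smallest p. Its control level ran from 106 through a median of 129 to 152 normalized CPM. The rilmenidine kidneys held 166, 164, 155 and 147. The first 3 lay above every control and the last below the highest control only. Means were 128 ± 17.3 and 158 ± 8.65, a log2 fold change of 0.30 (SE 0.12, 95% confidence interval 0.039 to 0.57), and the adjusted p in edgeR was 0.399.

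Atp6v0a1, the ubiquitous a subunit that forms the proton half-channels, had the highest log2 fold change of the sector. Control kidneys ranged from 60.3 to 95.2 normalized CPM (median 67.9), and the rilmenidine kidneys held 102, 99.6, 62.9 and 101. Replicates 1, 2 and 4 stood above every control, while replicate 3 was among the low controls. For Atp6v0a1 the log2 fold change was 0.32 (SE 0.17, 95% confidence interval -0.053 to 0.68), and the adjusted p in edgeR was 0.541. It was 0.46 without rilmenidine replicate 3 and 0.26 without replicate 1, 2 or 4.

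Atp6v0b, a proton-carrying ring subunit, was the member furthest below 0. Its control kidneys ran from 154 to 218 normalized CPM (median 163) and its rilmenidine kidneys were 148, 145, 164 and 163. Rilmenidine replicates 1 and 2 lay under the lowest control, and the other two near the control median. Its log2 fold change was -0.16 (95% confidence interval -0.43 to 0.11) and the adjusted p in edgeR 0.695. Atp6v0d1, which links the ring to the rotor, averaged 87.2 ± 23.4 and 93.3 ± 14.3, and Atp6ap1, an accessory subunit of the assembled V0, averaged 111 ± 12.3 and 114 ± 6.61.

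Atp6v0c, which makes up most of the proton-carrying ring, could not be followed. It had 0 to 8 counts per library and did not pass the filter. A processed copy, Atp6v0c-ps2, had 1 to 4 counts per library, and reads that match several copies may be lost or split in counting. Whether this accounts for the low counts was not tested.

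**Figure D2:**
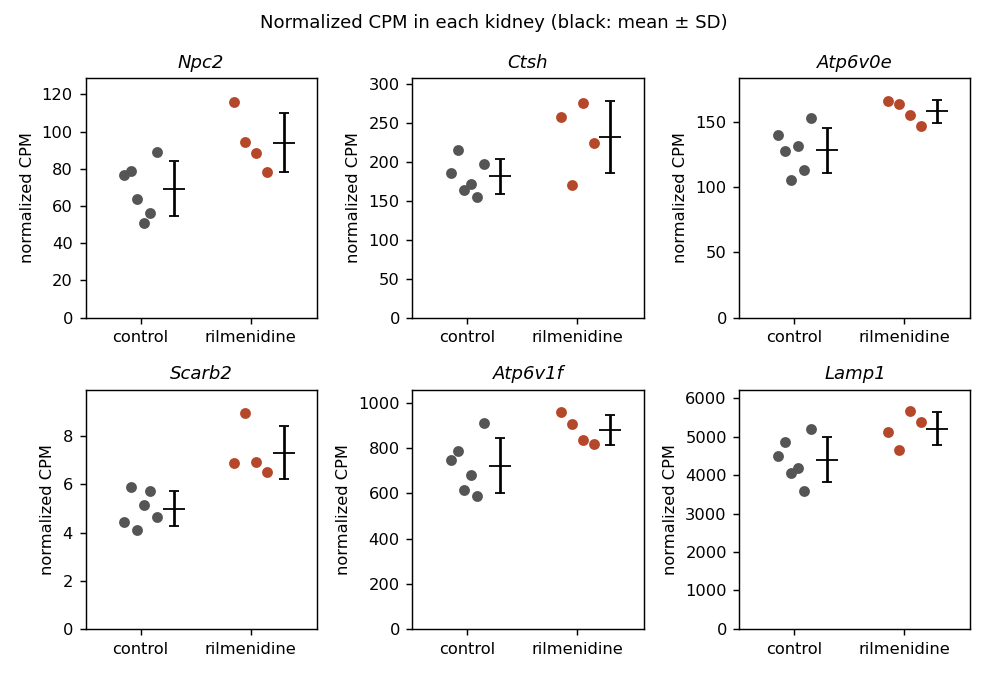
Normalized CPM (vertical axes, from 0) of 6 genes in each of 6 control and 4 rilmenidine kidneys; dots are kidneys and black marks the mean ± SD. In Scarb2 alone do all 4 rilmenidine kidneys lie above all 6 controls; Npc2, Ctsh, Atp6v0e, Atp6v1f and Lamp1 overlap.

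Of the 8 peptidases, 7 had a log2 fold change above 0, and their median of 0.22 was the highest of the 5 groups. Ctsh (ENSMUSG00000032359, chr9:90054152-90076089, plus strand), an aminopeptidase of the papain family, led them. Its control level ran from 154 through 178 to 216 normalized CPM, and the rilmenidine kidneys held 258, 171, 276 and 224. Replicates 1, 3 and 4 stood above every control, and replicate 2 stood below the control median. Means were 182 ± 22.7 and 232 ± 46.3, a log2 fold change of 0.36 (SE 0.14, 95% confidence interval 0.054 to 0.66), and the adjusted p in edgeR was 0.385.

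Ctsb and Ctsd, the major cysteine and aspartic endopeptidases of the lysosome, differed less. Ctsb ran from 692 to 1005 normalized CPM in controls (median 788) and was 1089, 874, 944 and 887 with rilmenidine, a log2 fold change of 0.21 (SE 0.14, adjusted p in edgeR 0.631). Ctsd ran from 214 to 341 (median 251) and was 306, 313, 294 and 341, a log2 fold change of 0.22 (SE 0.14, adjusted p in edgeR 0.614). For both genes every rilmenidine kidney exceeded the control median, and at most 1 exceeded the highest control. Ctsc, which activates granule proteases, had the lowest log2 fold change of the group, -0.020 (95% confidence interval -0.47 to 0.43), with controls of 14.0 to 28.9 and rilmenidine kidneys of 18.9, 21.1, 24.7 and 17.4.

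The other peptidases varied widely among controls. Ctsl, a cysteine endopeptidase, ran from 214 to 480 normalized CPM in controls and from 333 to 505 with rilmenidine. It overlaps an annotated processed pseudogene on the same strand. Ctss, the cathepsin of antigen-presenting cells, ran from 9.81 to 58.3 in controls and from 29.4 to 33.7 with rilmenidine, and its coefficient of variation among controls, 63.0%, was the largest of all members. The carboxypeptidases Ctsa (35.3 to 62.5 against 44.3 to 59.6) and Ctsz (40.0 to 89.9 against 60.0 to 86.2) stayed within the control range.

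Markers of macrophages, in which Ctss is abundant, summed to 79.3 to 190 normalized CPM in control and 118 to 143 in rilmenidine kidneys. Of the 12 markers, 0 had an unadjusted p under 0.05 (9 tested), and 0 of the 12 were at a count of 0 in every library. Among the 9 tested, 7 had a log2 fold change above 0 and 2 below, with a median of 0.26. Control replicate 2 was highest both in the marker sum and in Ctss, and the other controls summed to 79.3 to 116. The part of macrophages in the values of the cathepsins was not tested.

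Of the 10 glycosidases, lipid hydrolases and soluble cofactors, 8 had a log2 fold change above 0 (median 0.12). Npc2 (ENSMUSG00000021242, chr12:84754562-84773152, minus strand), the soluble carrier that hands cholesterol from the lumen to the membrane protein NPC1, had the smallest p of all members. Its control level ran from 50.8 through 70.2 to 89.0 normalized CPM. The rilmenidine kidneys held 116, 94.3, 88.2 and 78.1. All 4 exceeded the control median and replicates 1 and 2 exceeded every control. Means were 69.2 ± 14.7 and 94.1 ± 15.9, a log2 fold change of 0.44 (SE 0.17, 95% confidence interval 0.081 to 0.79), and the adjusted p in edgeR was 0.368.

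Npc1, the membrane partner of NPC2, was close to the limit of counting, with 5 to 21 counts per library. Its level ran from 2.32 to 8.18 normalized CPM in controls and from 2.78 to 7.90 with rilmenidine. At this depth no difference could be resolved.

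Gaa, the acid alpha-glucosidase that digests glycogen, ran from 33.1 to 58.3 normalized CPM in controls (median 39.5) and was 50.5, 49.5, 43.4 and 40.9 with rilmenidine. All 4 lay above the control median and below the highest control, and the log2 fold change was 0.10 (SE 0.17, adjusted p in edgeR 0.890). Psap, the precursor of the saposins that present sphingolipids to their hydrolases, had controls of 192 to 315 (median 248) and rilmenidine kidneys of 233, 271, 267 and 259. These sat in the middle of the control range, and the log2 fold change was 0.044 (SE 0.16, adjusted p in edgeR 0.955).

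Asah1, acid ceramidase, was the lowest of the group. Its controls ran from 21.1 to 43.4 normalized CPM and its rilmenidine kidneys were 34.4, 21.6, 28.5 and 34.1. Asah1 had a log2 fold change of -0.076 (95% confidence interval -0.49 to 0.34). Glb1, lysosomal beta-galactosidase, was the other gene of the group below 0, with 46.6 to 76.1 in controls and 37.3 to 69.5 with rilmenidine.

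Lipa, the acid lipase that frees cholesterol from its esters, ran from 387 to 619 normalized CPM in controls and was 672, 562, 560 and 504 with rilmenidine. Every rilmenidine kidney exceeded the control median of 456, and 1 exceeded every control. Grn, the granulin precursor, behaved alike, with controls of 225 to 357 and rilmenidine kidneys of 318, 262, 295 and 364. Neu1, the lysosomal sialidase, ran from 291 to 392 in controls and from 292 to 403 with rilmenidine. Hexa and Gla, which degrade gangliosides and globotriaosylceramide, were low, at 5.14 to 17.1 and 3.27 to 8.13 in controls against 7.75 to 14.9 and 4.96 to 6.60 with rilmenidine.

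The 5 membrane proteins gave 4 log2 fold changes above 0 (median 0.13) and 0 at an unadjusted p under 0.05. Scarb2 (ENSMUSG00000029426, chr5:92441314-92506833, minus strand), also known as LIMP-2, the receptor that carries beta-glucocerebrosidase to the lysosome, had the highest log2 fold change of all members. Its control level ran from 4.09 through 4.90 to 5.89 normalized CPM, and the rilmenidine kidneys held 6.88, 8.96, 6.95 and 6.51. It was the single member in which every rilmenidine kidney stood above every control, a pattern found in 0.766% of all genes tested. The level rested on 4 to 21 counts per library, and the log2 fold change was 0.53 (SE 0.28, 95% confidence interval -0.072 to 1.13), with an adjusted p of 0.534 in edgeR. Among controls, the spread of Scarb2, like that of Gla and Mcoln1, was no larger than counting error would give.

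Lamp1 (ENSMUSG00000031447, chr8:13159161-13175338, plus strand) and Lamp2 are the heavily glycosylated proteins that line the inner face of the lysosomal membrane. Lamp1 ran from 3580 through 4346 to 5196 normalized CPM in controls and was 5117, 4659, 5654 and 5393 with rilmenidine. All 4 exceeded the control median and 2 exceeded every control. Means were 4398 ± 583 and 5206 ± 425, a log2 fold change of 0.25 (SE 0.15, 95% confidence interval -0.063 to 0.55), and the adjusted p in edgeR was 0.581. Lamp2 ran from 585 to 770 in controls (median 597) and was 560, 677, 721 and 626, a log2 fold change of 0.032 (SE 0.13, adjusted p in edgeR 0.965).

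Mcoln1, the calcium channel TRPML1 of the lysosomal membrane, varied less than most members. Its controls ran from 22.1 to 32.4 normalized CPM (median 27.6), and the rilmenidine kidneys held 26.9, 25.3, 26.4 and 27.9, all inside that range. The log2 fold change was -0.042 (SE 0.16, 95% confidence interval -0.38 to 0.29), and the adjusted p in edgeR was 0.963. Tfeb itself ran from 5.89 to 17.1 in controls (median 12.3) and was 14.3, 10.5, 9.03 and 10.5 with rilmenidine. Its log2 fold change was -0.074 (SE 0.30, 95% confidence interval -0.70 to 0.55), an interval that holds changes of either sign, and the adjusted p in edgeR was 0.965.

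Taking the hydrolases and cofactors as 1 set of 18 and the pump as another, 15 of 18 hydrolases and 11 of 13 tested pump genes had a log2 fold change above 0, with medians of 0.20 and 0.15. Among controls the members' coefficient of variation ran from 8.89% (Atp6v1d) to 63.0% (Ctss) with a median of 20.0%, against a median of 7.38% that counting alone would give. The standard errors of the log2 fold changes had a median of 0.16, about the size of the median difference itself.

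The level of the 37 tested genes in each kidney moved with the separation of the libraries by Malat1. The mean log2 level of the members, as a difference from the control mean, was 0.11 to 0.26 in the rilmenidine kidneys. It was 0.18 and 0.22 in control replicates 2 and 6, which had Malat1 levels like those of the rilmenidine kidneys. It was -0.19 to 0.044 in the 4 control kidneys with over 1000 normalized CPM of Malat1.

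The groups of genes followed that order to different degrees. For glycosidases, lipid hydrolases and cofactors the 4 control kidneys high in Malat1 lay at -0.22 to -0.056 and the other two at 0.18 and 0.30, with the rilmenidine kidneys at 0.12 to 0.25. Peptidases lay at -0.36 to 0.23 in the former controls, at 0.24 and 0.39 in the latter and at 0.15 to 0.36 with rilmenidine. V0 with Atp6ap1 lay at -0.17 to 0.041, at 0.080 and 0.30, and at 0.047 to 0.20. V1 lay at -0.21 to 0.079, at 0.062 and 0.24, and at -0.012 to 0.26, with overlap between them. Membrane proteins lay at -0.081 to 0.073, at -0.13 and 0.18, and at 0.046 to 0.27, without that order.

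**Figure D3:**
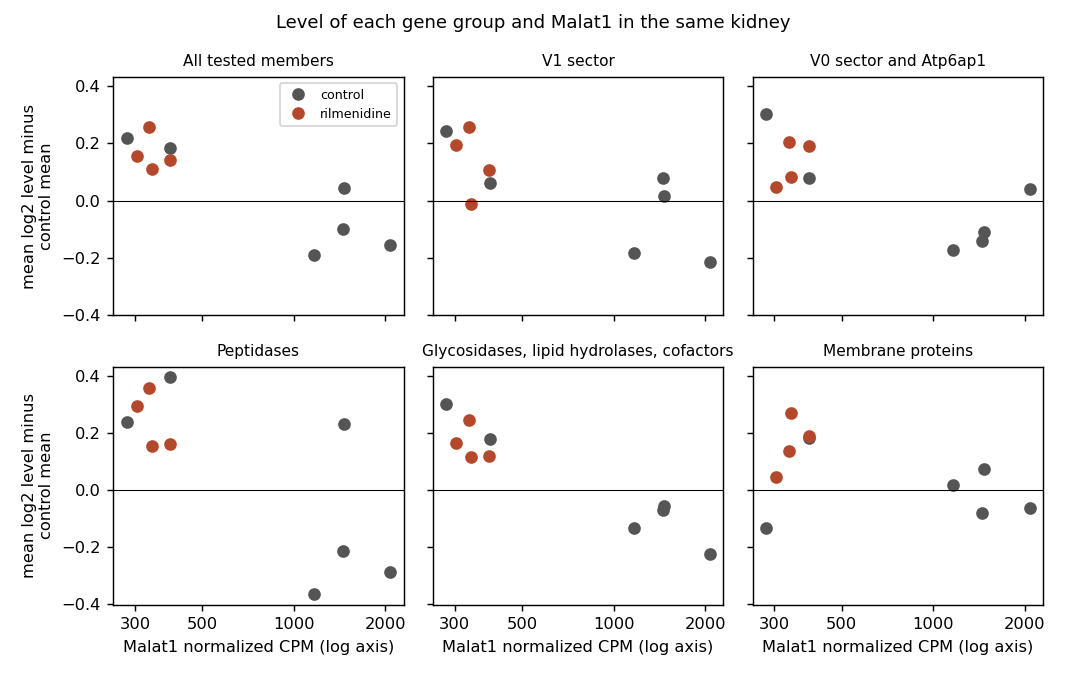
Mean log2 level of each gene group as a difference from the control mean (vertical axis) against normalized CPM of Malat1 (horizontal log axis) in 6 control and 4 rilmenidine kidneys; each dot is a kidney. For all tested members, control replicates 2 and 6 (0.18 and 0.22) lie among the rilmenidine kidneys (0.11 to 0.26) and the other 4 controls lie lower (-0.19 to 0.044).

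When log2 Malat1 was added to the edgeR fit, 14 of 37 members had a log2 fold change above 0 and the median became -0.059. Leaving out the 4 control libraries with over 1000 normalized CPM of Malat1 likewise gave 14 of 37 and a median of -0.051, and 0 members had an unadjusted p under 0.05 in either fit (3.02% and 3.22% of all genes). With log2 library size as a covariate 20 of 37 were above 0 (median 0.066), and Atp6v0b, lower with rilmenidine, was the 1 member at an unadjusted p under 0.05 (4.3% of all genes). The median was below 0 in each group other than the membrane proteins, both with log2 Malat1 and without those 4 libraries. Over all genes the share above 0 was between 51.8% and 52.1% in these 3 fits.

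The genes differed in what they lost. The log2 fold change of Npc2 went from 0.44 to 0.16, that of Ctsh from 0.36 to 0.17 and that of Atp6v0e from 0.30 to 0.17 in both the fit with log2 Malat1 and the fit without the 4 libraries. Atp6v1f went to 0.058 and 0.053, and Lamp1 to 0.047 and 0.050. Ctsb and Ctsd went below 0, to -0.026 and -0.064 with log2 Malat1. Scarb2 stayed at 0.53 with log2 Malat1 and at 0.48 without the 4 libraries. Malat1 level and treatment overlapped so far in these samples that their parts in the difference cannot be told apart.

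**Figure D4:**
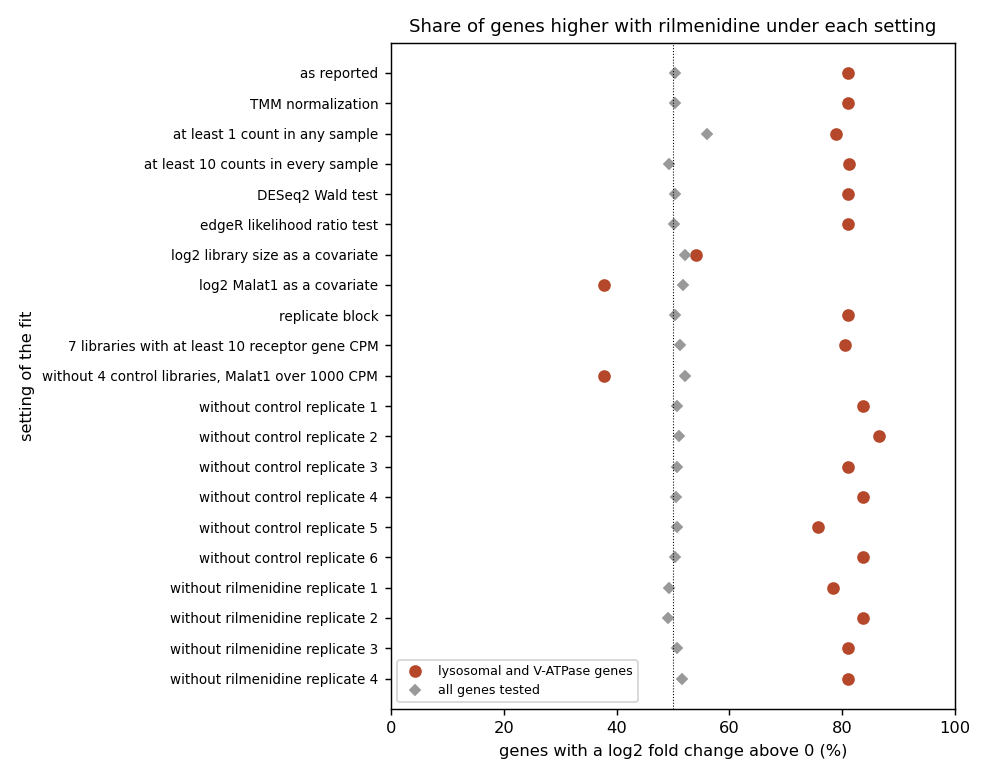
Share of genes with a log2 fold change above 0 (horizontal axis, %) under each setting of the fit (vertical axis), for the lysosomal and V-ATPase genes (circles) and for all genes tested (diamonds). The members sit between 75.7% and 86.5% in most settings, at 54.1% with log2 library size and at 37.8% with log2 Malat1 or without the 4 control libraries.

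Single libraries also decided the count of members at an unadjusted p under 0.05. It was 0 without rilmenidine replicate 1, the kidney highest in Npc2, Atp6v0e and Atp6v1f, where 8.14% of all genes passed. It was 8 without control replicate 6 (14.4% of all genes) and 6 without control replicate 2 (13.5%), the controls low in Malat1. A further fit kept only the 7 libraries with 10 CPM or more in reads of olfactory and vomeronasal receptors, genes silent in most tissues. It left out control replicate 6 and rilmenidine replicates 3 and 4, so rilmenidine replicates 1 and 2 alone represented the drug. In that fit the count was 7 of 36 (10.6% of all genes). The count of log2 fold changes above 0 ranged only from 28 to 32 of 37 when each kidney was left out in turn.

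Other forms of the pump's subunits, among them the tissue-restricted forms of intercalated cells, were set beside the ubiquitous ones. Of 9 tested, 6 had a log2 fold change above 0 (median 0.11). Tcirg1, the a3 subunit of osteoclasts and immune cells, was the 1 gene at an unadjusted p under 0.05, lower with rilmenidine. Its levels in controls ran from 13.2 to 22.9 and in rilmenidine kidneys from 7.99 to 14.3 normalized CPM, a log2 fold change of -0.64 (SE 0.24, adjusted p in edgeR 0.358). The intercalated cell forms Atp6v1b1, Atp6v0a4, Atp6v1g3 and Atp6v0d2 had log2 fold changes of -0.23, 0.15, 0.11 and 0.16, with adjusted p-values in edgeR of 0.740, 0.702, 0.898 and 0.875.

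Subunit usage was close in the groups when each restricted form was expressed as a share of the counts of its pair. Atp6v1b1 made up 6.32% ± 1.71 of the B subunit counts in control and 5.38% ± 0.91 in rilmenidine kidneys (SD, n = 6 and 4), and Atp6v1g3 16.1% ± 1.86 and 15.5% ± 2.58 of the G1 and G3 counts. Atp6v0a4 made up 58.7% ± 5.28 and 55.8% ± 5.45 of the a1 and a4 counts. Atp6v0d2 made up 32.5% ± 5.17 and 32.9% ± 8.21 of the d counts, and Atp6v1c2 7.12% ± 2.17 and 8.22% ± 3.16 of the C counts. Atp6v0e2 made up 18.7% ± 2.64 and 16.2% ± 2.11 of the e counts, and Atp6v1e2 had 0 counts in every library. Each difference of means was smaller than the sum of the SDs, which is not a test of equal usage. The shares rest on counts of 3′ end reads that were not scaled by transcript length.

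The intercalated cell markers include the pump subunits Atp6v1g3 and Atp6v0d2, so their sum is in part a reading of the pump itself. These markers summed to 258 to 359 normalized CPM in control and 195 to 398 in rilmenidine kidneys, with 0 of 10 at an unadjusted p under 0.05 (8 tested). Principal cell markers, led by the water channel Aqp2, summed to 131 to 180 in control and 189 to 220 in rilmenidine kidneys, with 2 of 4 tested genes higher at that level. Distal convoluted tubule markers had 2 of 3 tested genes lower at that level (sums of 191 to 342 against 122 to 240). Higher at that level were 1 of 3 tested thick ascending limb markers (1272 to 1897 against 1513 to 2497) and 1 of 10 proximal tubule markers. None of the tested podocyte, endothelial, liver or blood markers reached it, and the lymphocyte markers, with Cd79a at 0 in every library, were too low to test. The part of these cell types in the values of the pump was not tested.

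Of 10 accessory and assembly factors of the pump tested, 4 had a log2 fold change above 0 (median -0.11). Dmxl1 and Dmxl2, rabconnectins that help to reassemble V1 on V0, were lower with rilmenidine at an unadjusted p under 0.05. Dmxl1 ran from 57.2 to 111 normalized CPM in controls and from 47.0 to 65.3 with rilmenidine, a log2 fold change of -0.54 (SE 0.18, adjusted p in edgeR 0.313). Dmxl2 ran from 51.9 to 102 and from 43.0 to 62.2, a log2 fold change of -0.48 (SE 0.20, adjusted p in edgeR 0.426). In control replicates 2 and 6, both low in Malat1, Dmxl1 was 57.2 and 67.4 and Dmxl2 51.9 and 53.0 normalized CPM, inside or just above the rilmenidine ranges. Without the 4 control libraries high in Malat1 the log2 fold changes were -0.12 for Dmxl1 and -0.063 for Dmxl2.

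Of 33 further lysosomal hydrolases and cofactors tested, 26 had a log2 fold change above 0 (median 0.10) and 0 were higher at an unadjusted p under 0.05. Gusb, beta-glucuronidase, was the exception on the lower side. It ran from 79.7 to 265 normalized CPM in controls and from 64.8 to 112 with rilmenidine, a log2 fold change of -0.68 (SE 0.27, adjusted p in edgeR 0.388).

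Among 25 further membrane and sorting proteins tested, 15 were above 0 (median 0.0068). Slc36a1, the proton-coupled amino acid transporter PAT1 of the lysosomal and plasma membrane, had the smallest p of these genes. Its controls held 92.2, 57.2, 89.1, 85.4, 102 and 64.6 normalized CPM, and its rilmenidine kidneys 46.4, 49.5, 41.7 and 40.0. Every rilmenidine kidney lay below every control, as in 0.925% of all genes tested, and the controls nearest to them were replicates 2 and 6. Its log2 fold change of -0.87 (SE 0.17) had an adjusted p of 0.174 in edgeR, a value no gene went below. It passed the threshold with DESeq2 (adjusted p = 0.00406) and with the likelihood ratio test (adjusted p = 0.00611), as it did without control replicate 2 or 6, and over all settings the adjusted p ran from 0.000275 to 1. Without the 4 control libraries high in Malat1 the log2 fold change was -0.46. Slc17a5, the sialic acid exporter sialin, was the 1 gene of the list higher at an unadjusted p under 0.05, with a log2 fold change of 0.26 (SE 0.12, adjusted p in edgeR 0.471).

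Of 16 relatives and regulators of TFEB tested, 7 had a log2 fold change above 0 (median -0.076). Tfe3 and Mitf, which bind the same sites, had log2 fold changes of 0.0068 (SE 0.22) and -0.20 (SE 0.21), with adjusted p-values in edgeR of 0.995 and 0.776. Tfec, another relative, was lower with rilmenidine at an unadjusted p under 0.05 (log2 fold change -0.55, SE 0.22, adjusted p in edgeR 0.385).

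Zkscan3, a zinc finger repressor of autophagy and lysosomal genes, ran from 51.9 to 143 normalized CPM in controls and from 53.2 to 69.1 with rilmenidine. Its log2 fold change was -0.71 (SE 0.23, adjusted p in edgeR 0.303). Its 2 lowest controls, replicates 6 and 2, were the controls low in Malat1. Lamtor3, a subunit of the Ragulator complex that tethers mTORC1 to lysosomes, swung from 1.18 to 42.7 in controls and from 0.620 to 20.5 with rilmenidine. Its log2 fold change of -1.77 (SE 0.81, adjusted p in edgeR 0.456) turned to 0.78 with log2 Malat1 in the fit and to 1.54 without the 4 control libraries.

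Members were split by the E-box core in their promoter window. The 12 tested genes with the core had a median log2 fold change of 0.092, from -0.16 (Atp6v0b) to 0.30 (Atp6v0e), and 8 of them were above 0. The 17 tested genes whose window lacked it had a median of 0.20, from -0.074 (Tfeb) to 0.53 (Scarb2), and 15 were above 0. Lamp1, with its 4 cores printed above, had a log2 fold change of 0.25. The medians are descriptions of genes that share the same 10 kidneys, and no test was made on them.

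**Figure D5:**
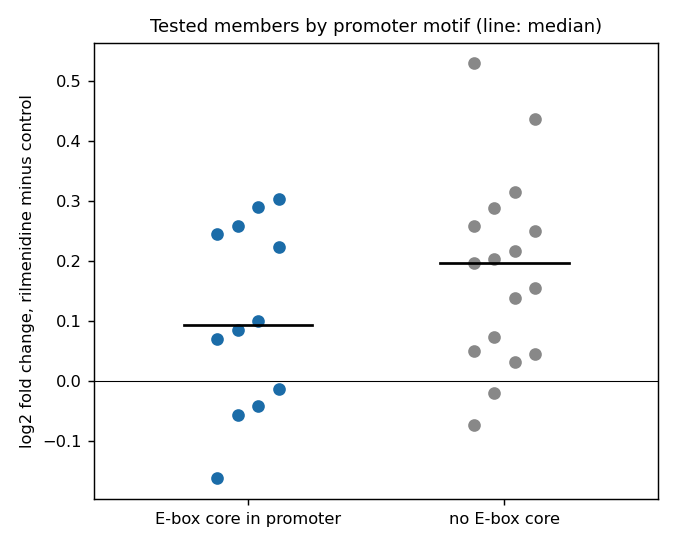
Log2 fold change (rilmenidine minus control, vertical axis) of the 29 tested members with a RefSeq promoter window, by whether the window holds the E-box core; each dot is a gene and the line is the median. The 12 genes with the core (median 0.092) and the 17 without it (median 0.20) overlap.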

How the data were processed

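RNA from whole kidneys had been made into libraries that capture the 3′ end of polyadenylated transcripts with molecular identifiers. Per the labels and the supplementary methods, the authors demultiplexed with bcl2fastq 1.8.4, trimmed with Trimmomatic 0.32, mapped with STAR 2.5.2b (mm10) and deposited raw counts of reads per Ensembl gene from featureCounts 1.5. The annotation release, strand setting and handling of identifiers are not given in the sources used here. If duplicate reads were kept, counting errors are understated. The labels give 6 control kidneys where the supplementary methods give 8, and the labels' extraction text speaks of liver. Nothing says whether mice shared a cage or litter, so p-values measure the spread between these samples.

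Gene symbols and coordinates were taken from GENCODE M21 (GRCm38), which held 42548 of 43629 identifiers, and promoters from RefSeq (GRCm38.p6). Of the members, 12 overlap another protein-coding gene, and without a known strand setting their reads cannot be told apart from their neighbours' reads. For 2 of these, Ctsd and Glb1, the neighbour lies on the same strand, so a known strand setting would not separate the reads either.

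Genes reaching 6 reads in 66.6% of the samples or more were normalized by RLE and fitted on all 10 libraries with edgeR 4.0.16 (R 4.3.3, quasi-likelihood test, no covariate). P-values were adjusted by Benjamini-Hochberg over all genes tested, and confidence intervals used the degrees of freedom of that fit. Normalized CPM is the count over the RLE-scaled library total, and log2 levels used a prior count of 2. Depth was compared by a two-sided exact permutation test over all 210 splits, whose smallest p is 0.00476. The fits were first tested on simulated counts that held no split by Malat1. The changes planted there were larger than the log2 fold change of any member, so differences as small as these were not covered.

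The members and the further lists were chosen with earlier results of these data known. Log2 fold changes are given for members at an unadjusted p under 0.05, for the highest and lowest of each of the 5 groups, and for 10 genes set for their role (Tfeb, Mcoln1, Lamp1, Lamp2, Ctsd, Ctsb, Atp6v0c, Atp6v1a, Psap, Gaa). From the further lists they are given for genes at that level and for Atp6v1b1, Atp6v0a4, Atp6v1g3, Atp6v0d2, Tfe3 and Mitf. Other lists used were markers of kidney, immune, liver and blood cells.

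Alternatives were TMM normalization, looser and stricter filters (1 count in any library, 10 in every library), DESeq2 1.42.0, the edgeR likelihood ratio test, covariates of log2 library size or log2 Malat1, a replicate block, 7 libraries with receptor gene reads, and leaving out each kidney. Leaving out the 4 control libraries with over 1000 CPM of Malat1 was chosen after seeing the data.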

Additional observations from a re-analysis of the deposited data

Results flagged for a closer look

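In groups of 4 or 6 kidneys, 76 in all over the 38 genes, a kidney that stood far from the rest of its group was found 3 times, and chance alone gives about 1 in 20 groups. Atp6v0a1 was at 62.9 normalized CPM in rilmenidine replicate 3, while the other rilmenidine kidneys held 99.6 to 102. Ctss was at 58.3 normalized CPM in control replicate 2, against 9.81 to 27.9 in the other controls. Gla was at 8.13 normalized CPM in control replicate 6, against 3.27 to 4.57 in the other controls.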

How the results depend on the processing

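The number of members past an adjusted p-value of 0.05 was 0 under every alternative run with edgeR and DESeq2. Over all genes the count of 0 became 241 when 1 count in any library was enough to keep a gene, 60 with DESeq2, 44 with the likelihood ratio test and 0 to 37 when kidneys were left out in turn. It was 33 without control replicate 2, 37 without control replicate 6 and 6 without rilmenidine replicate 1. The count of 3 members at an unadjusted p under 0.05, where 10.6% of all genes passed, became 5 with DESeq2 (9.8%). With log2 library size it was 1 (4.3%), namely Atp6v0b, lower with rilmenidine and not among the 3. The count was 0 with log2 Malat1 (3.02%), 0 without the 4 control libraries high in Malat1 (3.22%) and 7 in the 7 libraries with receptor reads (10.6%). Without single kidneys it ran from 0 without rilmenidine replicate 1 (8.14%) to 8 without control replicate 6 (14.4%). The cause of these changes was not tested. With log2 Malat1, and then without the 4 control libraries high in Malat1, the median of V1 was -0.011 and -0.0055, of V0 -0.064 and -0.041, of the peptidases -0.062 and -0.070, and of the glycosidases, lipid hydrolases and cofactors -0.059 and -0.076. With log2 library size, V0 was -0.028 and the glycosidases, lipid hydrolases and cofactors -0.0034. The median of the membrane proteins was 0.047 with log2 Malat1 and 0.050 without those 4 libraries, and without single kidneys it ranged from 0.0010 without rilmenidine replicate 2 to 0.24 without control replicate 2.

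Some log2 fold changes turned sign. With log2 Malat1, and then without the 4 control libraries high in Malat1, Atp6v1a was 0.056 and 0.091, Ctsb -0.026 and -0.043, Ctsd -0.064 and -0.096, Gaa -0.058 and -0.096, Psap -0.17 and -0.18, Atp6v1g3 -0.15 and -0.14, Atp6v0d2 -0.10 and -0.11, and Lamtor3 0.78 and 1.54. With log2 library size, Psap was -0.0031 and Lamtor3 0.14. The 7 libraries with receptor reads hold rilmenidine replicates 1 and 2 as the only treated kidneys. In them, Ctsc was 0.022, Lamp2 -0.0065, Tfeb 0.18, Atp6v1b1 0.0026 and Tfe3 -0.011. Without single kidneys the ranges crossed 0 for Atp6v1a (-0.074 to 0.057), Ctsc (-0.13 to 0.066), Asah1 (-0.15 to 0.036), Psap (-0.019 to 0.12), Lamp2 (-0.022 to 0.095), Mcoln1 (-0.096 to 0.015), Tfeb (-0.20 to 0.087), Atp6v1g3 (-0.083 to 0.27), Atp6v0d2 (-0.14 to 0.36) and Tfe3 (-0.12 to 0.12). Their causes were not tested.

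Replicate numbers are not said to pair the kidneys, and deviations from the group means of same-numbered kidneys correlated at -0.077 to 0.078, with no rilmenidine kidney closest to its own number. With the replicate block, 3 genes passed the adjusted threshold in place of 0, and Ctsc was 0.13, Tfeb 0.30 and Tfe3 -0.058.

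Depth limits the low genes most. Scarb2, Gla and Npc1 had at most 21 counts in any library, and Atp6v0c at most 8. TMM normalization changed no call and no direction among the results given.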
